A study of Arabidopsis thaliana with 6 samples.

Results

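Aux/IAA proteins are short-lived repressors of the auxin response in plants. They bind auxin response factors (ARFs) and recruit TOPLESS co-repressors, and auxin releases the repression by joining a degradation signal of the Aux/IAA protein, domain II, to the F-box receptors TIR1 and AFB. Many Aux/IAA genes are themselves switched on by auxin, and IAA29 is also known as a target of the PIF factors, which act in shade, warmth and darkness. The genes described here are those with a probe set paired with exactly 1 gene whose symbol is IAA followed by a number, with the probe set of the highest mean where a gene has several. The rule found 7 genes, each with 1 probe set, among 13350 genes that had a probe set of their own. They were IAA18 (AT1G51950), IAA20 (AT2G46990), IAA29 (AT4G32280), IAA30 (AT3G62100), IAA31 (AT3G17600), IAA33 (AT5G57420) and IAA34 (AT1G15050). A list of the family by locus held 29 genes, and the other 22 were not analysed here.

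The study set rosettes of wild type Col-0 against rosettes of the pmr5 mutant in the Col-0 background, on 1-colour Affymetrix arrays. Both genotypes were 3 weeks old, had received no treatment and grew at 22 °C under a 14 h photoperiod. Each genotype had 3 arrays, which the labels call biological replicates. The labels give neither the mutant allele nor the number of plants behind an array, and they do not say whether replicates were sown apart, so the p-values measure only the spread between these samples. In whole rosettes, fewer cells of a type and less RNA per cell cannot be told apart.

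All values are log2 signals per probe set. On each array 25% to 26.3% of the probe sets sat at a common lowest value of 2.19, and values there have no order. Differences are pmr5 minus Col-0 and were tested with limma on the 22746 probe sets that were not controls, and a Benjamini-Hochberg adjusted p under 0.05 passed. With 6 arrays, their number is one limit on precision. A pair of arrays stood apart from their own genotype. Replicate 2 of pmr5 was at least 1 log2 unit away from both other pmr5 arrays, in 1 direction, in 912 of 16188 probe sets above the lowest value, and Col-0 replicate 1 was so in 710. The other 4 arrays were so in 86 to 393. The mean 3' minus 5' signal of 6 control pairs, a measure of RNA integrity, was highest in pmr5 replicate 2, at 2.20 against 1.97 to 2.14 elsewhere. Col-0 replicate 1, the other array that stood apart, was at 2.12, within the range of the rest. A link with RNA integrity was not tested.

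The rosette label was checked against markers of leaf and of other organs and cells. A marker counts as measured if a probe set was paired with that gene alone. Of 6 leaf markers the light-harvesting genes LHCB4.1 and LHCB4.2 were measured, at 14.25 to 14.90 on every array. Among root markers, EXPA7 did not leave the lowest value on any array, while PYK10 lay between 3.28 and 5.86, with its lowest value in pmr5 replicate 2. The meristem marker CLV3 did not leave the lowest value either. The trichome gene TRY ranged from 6.47 to 8.81, with its highest value in pmr5 replicate 2. Both measured guard cell markers, AT1G22690 (10.02 to 10.37 in Col-0, 10.66 to 10.85 in pmr5) and FMA (5.41 to 5.56 in Col-0, 5.58 to 5.74 in pmr5), were higher on every pmr5 array. Over all probe sets the genotypes were apart in 4.66%. Neither marker passed the threshold (limma adjusted p = 1 in each), the unadjusted p was 0.00488 for AT1G22690 and 0.0627 for FMA, and 2.6% of all probe sets had one under 0.05. No flower or phloem marker of the lists had a probe set paired with it alone, so none was examined.

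The 7 genes fell into 3 patterns. IAA18 gave a clear signal on all arrays. IAA29 and IAA30 gave low signals above the lowest value, IAA30 on 4 arrays only just above it, at 2.20. IAA20, IAA31, IAA33 and IAA34 were at 2.19 on all 6 arrays. Being at the lowest value on every array was the case for 3741 of the 22746 probe sets, or 16.4%. The 4 genes at the lowest value have a difference of 0 by construction, which says nothing of transcripts too dim to measure. They belong, with IAA30, to the members known to depart from the canonical build. IAA20 and IAA30 lack domain II, IAA31 has an incomplete one, and IAA33 and IAA34 lack the canonical motif. The values of probe sets with different sequences cannot be ranked against each other. The 3 patterns place each gene only against the lowest value and give no order of levels between the genes.

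**Figure D1:**
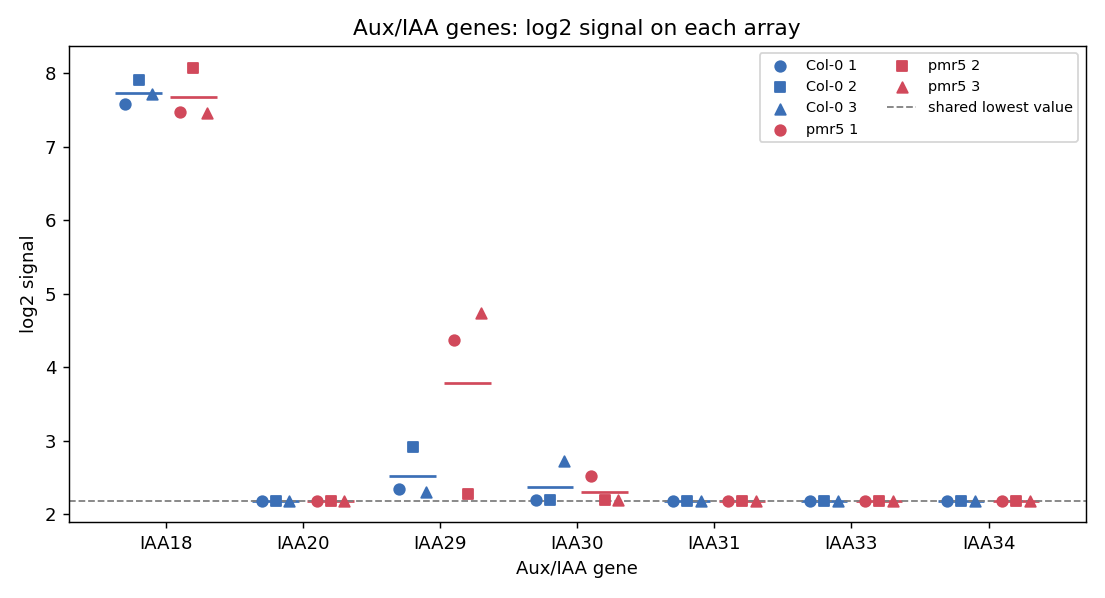
Log2 signal (y axis) of the 7 Aux/IAA genes (x axis) on each array, with Col-0 in blue, pmr5 in red, a symbol per replicate number, short lines at genotype means and a dashed line at the shared lowest value. IAA18 lies between 7.46 and 8.08, IAA29 reaches 4.37 and 4.73 on 2 pmr5 arrays only, and 4 genes lie at 2.19 throughout.

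IAA29 encodes a domain II Aux/IAA protein. Its log2 signal was 2.34, 2.91 and 2.30 in Col-0 replicates 1 to 3 and 4.37, 2.28 and 4.73 in pmr5 replicates 1 to 3. Replicates 1 and 3 of pmr5 were above every Col-0 array, pmr5 replicate 2 was the lowest of all 6 arrays, and so the genotypes overlapped. Col-0 averaged 2.52 ± 0.34 and pmr5 3.79 ± 1.32 (SD, n = 3 each). The mean of pmr5 was 2.42-fold higher, a difference of 1.28 log2 units (SE 0.75) with a 95% interval from -0.74 to 3.29. It did not pass the threshold (limma adjusted p = 1, unadjusted p = 0.159). The Col-0 values and that of pmr5 replicate 2 lie close to the lowest value, where a difference may show only in part. This was not tested.

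The spread of IAA29 lay within pmr5. Replicate 1 of pmr5 was 2.09 and pmr5 replicate 3 was 2.46 log2 units above pmr5 replicate 2. Both gaps were at least 2 log2 units in 52 of 22746 probe sets, or 0.229%. The limit of 2 lies just under the gaps of IAA29 itself, so this share is a description and no test. The 22746 include 3741 probe sets at the lowest value on every array, which can show no gap. The residual SD of IAA29 was 0.97 log2 units, above that of 97.3% of the 15900 probe sets that varied above the lowest value, whose median was 0.23.

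The size of the difference moved with each pmr5 array left out. Without pmr5 replicate 2 it was 2.03 (SE 0.27), with a limma unadjusted p of 0.00318 and an adjusted p of 0.333. The 2 other pmr5 arrays then did not overlap with Col-0, as was the case, with pmr5 higher, for 10.4% of all probe sets. Among all probe sets 7.73% had an unadjusted p under 0.05 in that fit. Without pmr5 replicate 1 the difference was 0.99 (SE 0.89) and without pmr5 replicate 3 it was 0.80 (SE 0.77). The part in these values of what sets pmr5 replicate 2 apart from the other arrays was not tested.

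**Figure D2:**
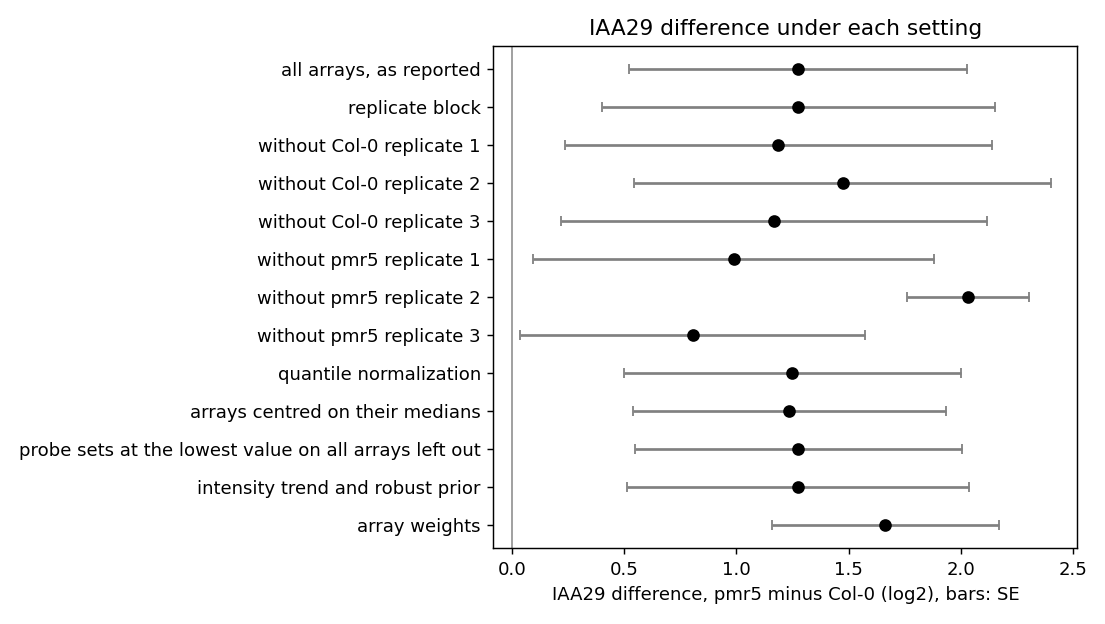
Difference of IAA29 between pmr5 and Col-0 in log2 units (x axis) under each setting of the fit (y axis), with bars of 1 standard error. The lowest value, 0.80, leaves out pmr5 replicate 3 and the highest, 2.03, leaves out pmr5 replicate 2, and all 13 lie above 0.

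IAA18 also encodes an Aux/IAA protein with domain II, in which gain-of-function mutations are known to disturb embryo and root development. Its signal was 7.58, 7.91 and 7.72 in Col-0 replicates 1 to 3 and 7.48, 8.08 and 7.46 in pmr5 replicates 1 to 3. Replicate 2 of pmr5 was here the highest array and the other pmr5 arrays were the lowest, so the Col-0 values lay within the range of pmr5. Col-0 averaged 7.73 ± 0.16 and pmr5 7.67 ± 0.35 (SD, n = 3 each). The difference of -0.06 (SE 0.21) had a 95% interval from -0.63 to 0.51 and did not pass the threshold (limma adjusted p = 1). The residual SD of IAA18 was 0.27. Without pmr5 replicate 2 the difference was -0.26 (SE 0.11, limma adjusted p = 0.773). Its sign turned without Col-0 replicate 2, at 0.026, without pmr5 replicate 1, at 0.037, and without pmr5 replicate 3, at 0.045.

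IAA30 encodes a protein without domain II, and the gene is known as a target of the embryo factors LEC2 and AGL15. It was at 2.20, 2.20 and 2.72 in Col-0 replicates 1 to 3 and at 2.52, 2.20 and 2.20 in pmr5 replicates 1 to 3. Exactly 1 value recurred on 4 arrays, just above the shared lowest value, and only Col-0 replicate 3 and pmr5 replicate 1 rose above it. A tie between at least 2 arrays was present in 29.5% of the 16188 probe sets above the lowest value. The difference was -0.07 (SE 0.19, limma adjusted p = 1), and it was 0.11 without Col-0 replicate 3. With 4 tied arrays this standard error does not describe a normal spread.

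Counted over the family, 0 of 7 genes passed the threshold of the limma test, as did 0% of all probe sets, and 0 of 7 had an unadjusted p under 0.05, against 2.6% of all. In 0 of 7 were the genotypes apart, against 4.66% of all probe sets. The 4 genes at the lowest value throughout could not count in any comparison here. IAA30 held 1 tied value in both genotypes, so only IAA18 and IAA29 could have had genotypes apart. IAA29 was the 1 gene at least 2-fold higher in pmr5, where 0.598% of all probe sets were, and 0 were 2-fold lower, against 0.334%. Without pmr5 replicate 1, or without pmr5 replicate 3, IAA29 fell under 2-fold. Of the 3 genes that varied, 1 was higher and 2 were lower, with a median of -0.06 log2 units. The median over all 7 and over all probe sets was 0.

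The gene profiles most like that of IAA29 were sought among 10862 probe sets paired with 1 gene and above the lowest value on at least 1 array, by the root mean square difference of log2 signals over the 6 arrays after each gene was centred on its mean. The closest were AT3G15630 at 0.33, AT2G28660 at 0.37, AT3G47800 at 0.44, CCL at 0.45 and EXPA16 at 0.48 log2 units. CCL is known for an unstable, clock-controlled transcript, and EXPA16 encodes an expansin, a protein that loosens cell walls. CCL was at 10.44, 10.22 and 9.89 in Col-0 and at 11.57, 9.01 and 11.62 in pmr5 replicates 1 to 3. EXPA16 was at 5.72, 6.64 and 6.45 in Col-0 and at 8.02, 5.16 and 7.51 in pmr5. In both, as in IAA29, pmr5 replicate 2 was the lowest array and pmr5 replicates 1 and 3 were the highest. The likeness chose this pattern. Differences between the genotypes ranged from 0.54 in CCL to 1.02 in AT3G15630, and 0 of the 5 passed the threshold (limma adjusted p = 1 in each). With pmr5 replicate 2 left out, each of the 5 was larger, between 1.29 in AT3G47800 and 1.72 in AT3G15630. CCL was then at 1.41 and AT2G28660 at 1.48. This rise also follows from the choice, since pmr5 replicate 2 was the lowest pmr5 array in each of the 5. Without pmr5 replicate 1 the differences of AT2G28660, AT3G47800 and EXPA16 were 0.50, 0.14 and 0.07, and without pmr5 replicate 3 those of AT3G15630 and CCL were 0.53 and 0.10.

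**Figure D3:**
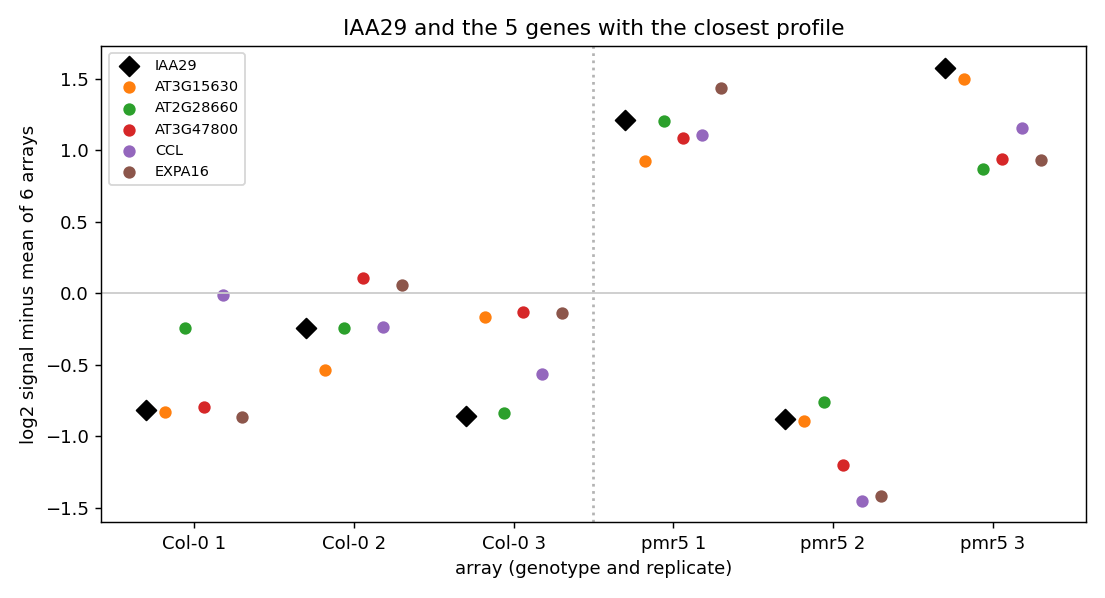
Log2 signal minus the gene's mean over 6 arrays (y axis) for IAA29 (black diamonds) and the 5 genes with the closest profile (coloured points) on each array (x axis). All 6 genes have their 2 highest values on pmr5 replicates 1 and 3 and low values on pmr5 replicate 2.

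The rest of the auxin pathway was covered thinly. Of 120 loci in lists of receptors, the SCF complex, co-repressors, ARFs, GH3 enzymes, SAUR growth genes, transport, synthesis and turnover, and shade and PIF genes, 11 were measured. None of the receptor, SCF, co-repressor, ARF, SAUR or transport loci was among them. Measured means that a probe set was paired with that gene alone. Probe sets paired with several genes or none were not matched, so these counts do not say which transcripts the array assays. Of the 11, 0 passed the threshold in either direction with limma, 0 had an unadjusted p under 0.05, and the genotypes overlapped in each. Over all probe sets these shares were 0%, 2.6% and, for genotypes apart, 4.66%. Counts of 0 among 11 genes are near that background. YUC4, GH3.17, GH3.1, YUC6 and FHL were at the lowest value on at least 4 arrays. Both genotypes held that tie, so in these genes the overlap was fixed.

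GH3 enzymes join auxin and other acids to amino acids, and several are induced by auxin. Of the list's 8 loci 5 were measured. GH3.1 and GH3.17 were at or within 0.07 log2 units of the lowest value on every array. GH3.3 was at 3.58, 3.95 and 4.28 in Col-0 and 4.06, 3.96 and 3.96 in pmr5, a difference of 0.06 (SE 0.20). WES1, also named GH3.5, differed by 0.10 (SE 0.22) and GH3.9 by -0.05 (SE 0.16). All 3 differences were smaller than the spread between replicates (limma adjusted p = 1 in each), and the sign of each turned when 1 array was left out. GH3.3 was at -0.12 and WES1 at -0.06 without Col-0 replicate 1, and GH3.9 was at 0.06 without pmr5 replicate 2. The ranges were -0.12 to 0.23 for GH3.3, -0.06 to 0.25 for WES1 and -0.20 to 0.06 for GH3.9, with the other ends reached without Col-0 replicate 3 for GH3.3 and WES1 and without pmr5 replicate 1 for GH3.9.

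YUC flavin monooxygenases catalyse the last step of auxin synthesis. YUC4 never left the lowest value, and YUC6 was there on 4 arrays and reached 2.36 at most. YUC2 was at 4.62, 4.36 and 4.24 in Col-0 and 4.56, 5.09 and 4.24 in pmr5 replicates 1 to 3. Its difference of 0.22 (SE 0.26) rested on pmr5 replicate 2, the highest array, without which it was -0.01, and it was 0.42 without pmr5 replicate 3. AT1G14130, named DAO1 in the list for auxin synthesis and turnover, is not a YUC gene. Its signal ranged from 4.25 to 5.96 in Col-0 and from 4.58 to 5.64 in pmr5. It differed by 0.13 (SE 0.57). This was -0.23 without Col-0 replicate 1, while leaving out Col-0 replicate 3 gave 0.63.

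Of 17 shade and PIF loci only HAT2 and FHL were measured. HAT2 encodes a homeodomain-leucine zipper factor that auxin induces rapidly. It was at 7.54, 7.26 and 7.56 in Col-0 and at 7.41, 5.77 and 7.60 in pmr5 replicates 1 to 3. Replicate 2 of pmr5 was 1.49 log2 units below the next lowest array, and the other 5 held to 7.26 to 7.60. The difference of -0.53 (SE 0.56, limma adjusted p = 1) was 0.05 (SE 0.13) without that array and -0.86 without pmr5 replicate 3. FHL, which serves the nuclear import of phytochrome A, was within 0.05 log2 units of the lowest value on every array.

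**Figure D4:**
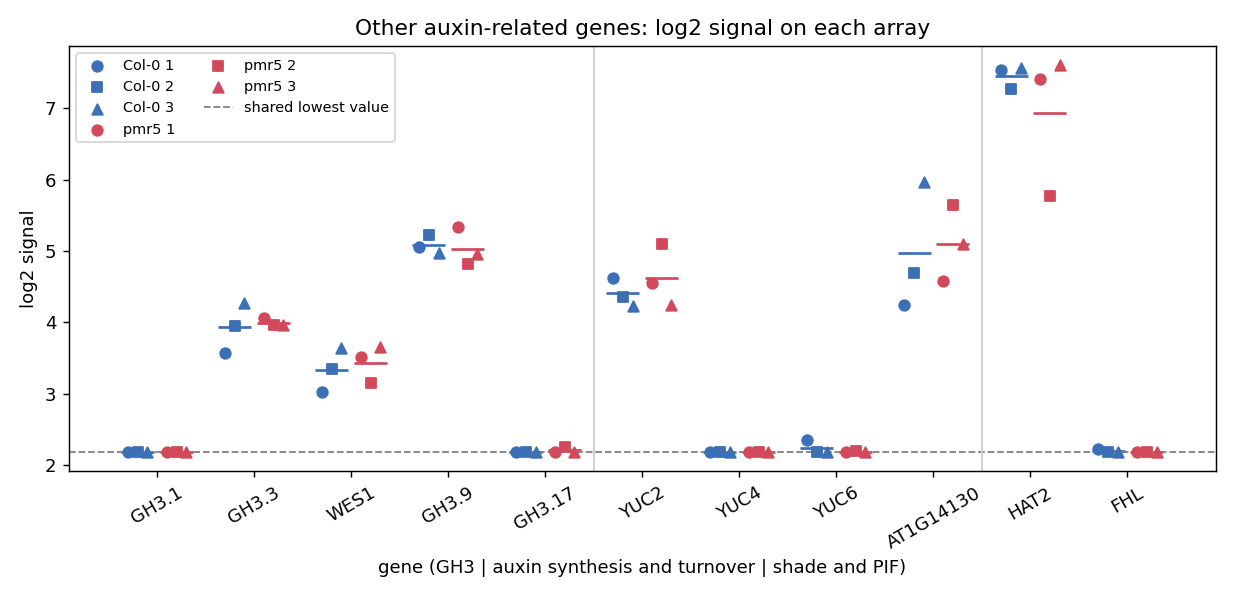
Log2 signal (y axis) of the 11 measured genes of the auxin and shade lists (x axis) on each array, drawn as for the Aux/IAA genes with lines at genotype means and the lowest value dashed. The genotypes overlap in every gene, for YUC4, GH3.17, GH3.1, YUC6 and FHL by ties at the lowest value. HAT2 on pmr5 replicate 2, at 5.77, lies apart from 7.26 to 7.60 on the other arrays.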

How the data were processed

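Per the submitters' processing notes, the authors computed the deposited log2 signals with RMA in affy (the version of each not given in the sources used here), 1 value per probe set on each of 6 arrays. Neither the step behind the common lowest value nor detection calls are given there. Of 22810 probe sets, 64 Affymetrix controls were left out of the tests. The platform annotation paired 13513 of the others with 1 gene, 503 with several and 8730 with none. The RefSeq gene table of TAIR10.1 gave locus codes and matched 13436 of the 13513.

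No further normalization was applied. The fit used limma 3.58.1 in R 4.3.3 (lmFit and eBayes, 2-sided), with Benjamini-Hochberg adjustment over 22746 probe sets. It was checked on simulated independent normal values with no array set apart. That check does not cover arrays that deviate as pmr5 replicate 2 did. The text names all Aux/IAA genes, the 5 genes of the closest profile for each member with a range of at least 1 log2 unit (only IAA29), and all measured members of the pathway lists. Members and lists were chosen with earlier results of these data known. Alternatives were a block on replicate number, each array left out in turn, quantile normalization, median centring, filters on dim probe sets, an intensity trend with robust prior, array weights and a threshold of 0.1.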

Additional observations from a re-analysis of the deposited data

How the results depend on the processing

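The count of 0 Aux/IAA genes past the threshold was 0 in all 14 alternatives run. Their median of 0 is fixed by the 4 genes at the lowest value and says nothing of stability. Over all probe sets the count of 0 ranged from 0 to 13 with 1 array left out, highest without pmr5 replicate 2, and was 0 in the other settings. The alternatives were followed in the 20 named genes that varied and were at the lowest value on fewer than 4 arrays. Of their 253 values, 0 passed the threshold and 22, in 10 genes, had the opposite sign. With array weights IAA30 was at 0.019, HAT2 at 0.0098 and TRY at -0.012, and IAA18 moved from -0.06 to -0.30. With 1 array left out, IAA18 ranged from -0.26 to 0.045, IAA30 from -0.17 to 0.11, GH3.9 from -0.20 to 0.059, GH3.3 from -0.12 to 0.23, WES1 from -0.057 to 0.25, AT1G14130 from -0.23 to 0.63, YUC2 from -0.0092 to 0.42, HAT2 from -0.86 to 0.050, PYK10 from -0.22 to 1.07 and TRY from -0.67 to 0.54. The cause was not tested. IAA29 kept its sign in all 12 of its alternatives (adjusted p from 0.333 to 1). Its difference was 1.66 (SE 0.51, limma adjusted p = 0.583) with array weights, against 1.28 (SE 0.75) in the main fit. Same-numbered arrays deviated from their genotype means with correlations of 0.12, -0.28 and 0.19 across 15900 probe sets, so the numbers were not taken as pairs. With the replicate block the count over all probe sets was 0 and IAA29 was at 1.28 (SE 0.88). Each Aux/IAA gene had 1 probe set, so averaging probe sets was not run. Leaving out probe sets below the median mean signal kept only IAA18 among the 7.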
